A study of Mus musculus with 2 samples.

Results

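The nuclear genes for subunits of the respiratory chain and ATP synthase were followed in the adrenal glands of newborn mice. Members were taken by gene symbol, from the Nduf, Sdh, Uqcr, Cox4 to Cox8 and Atp5 families and Cyc1, and had to have a transcript annotated as protein coding. The symbols matched 98 genes, of which 12 had no such transcript, which left 86 members among 21888 nuclear protein-coding genes and 55536 annotated genes. They comprise 35 genes of complex I, 4 of complex II, 9 of complex III, 20 of complex IV and 18 of complex V, and carry 85 symbols because Atp5o stands under 2 gene identifiers. Total RNA of whole glands was sequenced from female B6CASTF1/J mice, hybrids of a laboratory strain and the wild-derived CAST strain, at an age of 4 days and with no treatment named. The 2 samples form 1 group of 2 biological replicates, called animal 1 and animal 2 here after their replicate numbers. The library text of replicate 2 names the same animal as that of replicate 1, whereas its tissue text names another. No condition was compared, so levels are given per animal and differences between the animals have no replicate check and no test.

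The respiratory chain takes electrons from NADH at complex I and from succinate at complex II, hands them through complex III to complex IV, and reduces oxygen there. Complexes I, III and IV pump protons across the inner mitochondrial membrane, and ATP synthase, complex V, makes ATP as the protons flow back. A few subunits are encoded in mitochondrial DNA and all others in the nucleus. In the steroid-making cells of the adrenal cortex, mitochondria also house the first step of steroid synthesis. Several complex IV subunits, and the c subunit of ATP synthase, are encoded by more than 1 gene, and for complex IV 1 of the genes is typically used in striated muscle and brown fat, lung, pericytes or testis.

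The libraries held 31838341 expected counts in animal 1 and 32931868 in animal 2. Marker genes of the gland were present in both: the 6 adrenal cortex markers summed to 3854 TPM in animal 1 and 4114 TPM in animal 2, and the 5 adrenal medulla markers to 1823 and 2135 TPM. TPM is a level corrected for transcript length and library size. Markers of neighbouring tissues differed much more. The 8 skeletal muscle markers summed to 368 and 2306 TPM, the 4 liver markers to 91.3 and 366 TPM, the 5 pancreas markers to 3611 and 0.49 TPM, the 5 kidney markers to 86.4 and 8.83 TPM and the 5 blood markers to 3983 and 2865 TPM. The 2 libraries are thus not 1 library deposited under both numbers, and nothing but the labels says that they come from separate animals.

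Nearly the whole chain was expressed in the newborn gland. Of the 86 members, 83 reached 1 TPM in both animals, where 59.5% of all nuclear protein-coding genes did. At 100 TPM or more in both animals stood 47 of 86 members, against 2.35% of all nuclear protein-coding genes. The members' median level was 110 TPM in animal 1 and 127 TPM in animal 2, and that of all nuclear protein-coding genes 3.81 and 3.63 TPM. Summed, the members made up 2.98% of nuclear protein-coding TPM in animal 1 and 3.47% in animal 2. In a bulk sample, fewer cells of a type and less RNA per cell cannot be told apart, so these levels describe the gland with whatever tissue came with it.

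**Figure D1:**
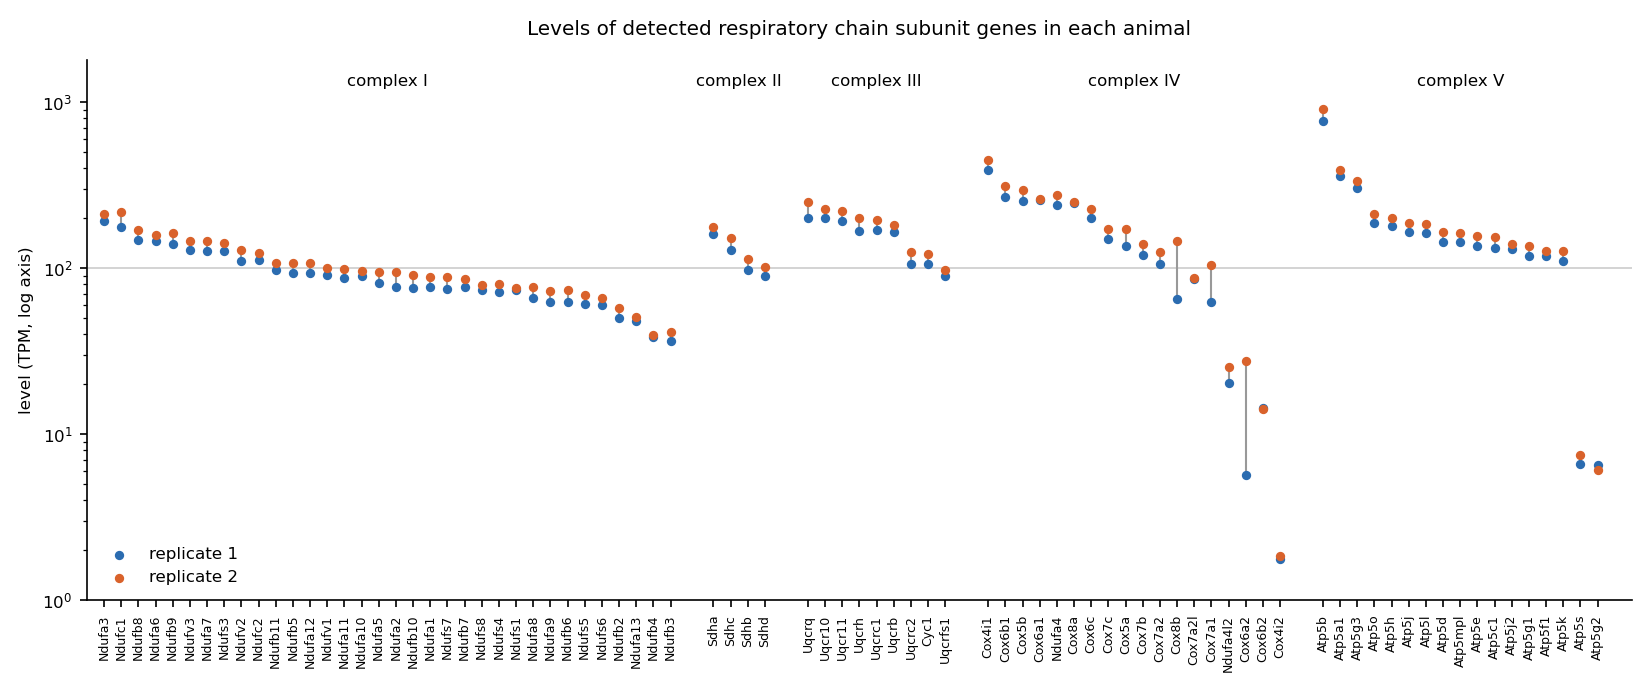
Level of members with a value above 0 in both animals, those named on the axis, in TPM on a log axis, grouped by complex and ordered by mean level; blue points are animal 1, orange points animal 2 and the horizontal line marks 100 TPM. Most orange points lie just above their blue partners, and Cox8b, Cox7a1 and Cox6a2 show the widest gaps between the animals.

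Complex I, the NADH dehydrogenase and the largest complex of the chain, summed to 3276 TPM in animal 1 and 3720 TPM in animal 2 (3498 ± 314, SD, n = 2). All 35 of its members were detected, and their mean levels lay within a 5.2-fold range. The 7 core subunits, which hold the flavin, the iron-sulfur clusters and the quinone site, summed to 708 and 789 TPM, and the 28 accessory subunits, which surround and stabilise the core, to 2568 and 2931 TPM. Ndufs1, whose product holds iron-sulfur clusters of the electron path, had the lowest mean level of the core genes, at 73.8 TPM in animal 1 and 76.0 TPM in animal 2. Ndufs8, another iron-sulfur subunit at 73.3 and 79.0 TPM, was below Ndufs1 in animal 1 and above it in animal 2, so the low end has no fixed order.

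Ndufa3, a small membrane-arm accessory subunit, was the highest complex I gene by mean level, at 192 TPM in animal 1 and 212 TPM in animal 2. Ndufc1, another small accessory subunit, followed at 176 and 218 TPM and was above Ndufa3 in animal 2. Ndufb3, a membrane-arm subunit, was the lowest at 36.2 and 41.4 TPM, next to Ndufb4 at 38.6 and 39.7 TPM. The order of Ndufb3 and Ndufb4 differed between the animals, so in the first quantification this pair does not separate beyond the spread between the animals. These ranks differed in the second quantification. There Ndufb8, an accessory subunit, was the highest complex I gene, at 394 and 446 TPM. Ndufb4, at 246 and 262 TPM, was well above Ndufb3 at 89.5 and 102 TPM. Most of the Ndufa3 level was assigned to transcripts not annotated as protein coding. In the first quantification its protein-coding transcripts held 10.3% of the gene's TPM in animal 1 and 8.47% in animal 2. Its rank as the highest gene by mean level thus holds for all transcripts together in the first quantification, and not for coding transcripts alone. Atp5j, a subunit of the ATP synthase stalk, had a protein-coding share of 15.1% and 14.9%, and Ndufs4, a complex I accessory subunit, 15.5% and 12.8%. These 3 had the smallest coding shares of all detected members. When protein-coding transcripts alone were summed, complex I came to 2631 TPM ± 249 and complex V to 2743 TPM ± 230 (SD, n = 2).

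Complex II, the succinate dehydrogenase that also works in the citric acid cycle, had the narrowest fold range of the complexes and the fewest genes. A range tends to widen with more genes, and the 5 accessory genes of complex III alone lay within 1.3-fold. Its 4 genes lay within a 1.75-fold range and summed to 476 TPM in animal 1 and 543 TPM in animal 2 (509 ± 47.3, SD, n = 2). Sdha, the flavoprotein, was highest at 161 and 176 TPM, and Sdhc, a membrane anchor, second at 128 and 152 TPM. Sdhb, the iron-sulfur subunit, stood at 96.9 and 113 TPM, and Sdhd, the other membrane anchor, was lowest at 90.0 and 102 TPM. The order of the 4 was the same in both animals but not in both quantifications. In the second quantification Sdhc was the lowest, at 135 and 158 TPM, below Sdhd at 145 and 167 TPM.

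Complex III, the cytochrome bc1 complex, summed to 1391 TPM in animal 1 and 1614 TPM in animal 2 (1503 ± 158, SD, n = 2). Its 2 highest genes encode small accessory subunits: Uqcrq stood at 199 and 249 TPM and Uqcr10 at 199 and 225 TPM. Uqcrc1, a core subunit, stood among the accessory ones at 169.6 and 193 TPM. Cyc1, cytochrome c1, was at 106 and 121 TPM. Uqcrfs1, the Rieske iron-sulfur protein, was the lowest of the 9 at 90.0 and 97.1 TPM. Uqcrq and Uqcr10 did not differ in animal 1, where both came to 199 TPM. In the second quantification Uqcr11, another accessory subunit, stood above both, at 415 and 503 TPM.

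Complex IV, cytochrome c oxidase, summed to 2621 TPM in animal 1 and 3076 TPM in animal 2 (2848 ± 322, SD, n = 2). The 11 genes used in most tissues gave 2364 and 2672 TPM of this and lay within a 3.61-fold range. Cox4i1, a regulatory subunit that binds ATP, was highest at 389 and 446 TPM. Cox6b1, which joins the monomers of the dimer, followed at 268 and 313 TPM. Among these 11, Cox7a2 was the lowest at 106 and 125 TPM. Cox7a2l, a relative of Cox7a2 that links complexes III and IV in supercomplexes, stood at 86.0 and 87.2 TPM. These ranks differed in the second quantification. There Cox7a2, at 361 and 432 TPM, was above Cox5a at 249 and 310 TPM. Cox6b1, at 418 and 481 TPM, was below Cox7c at 608 and 675 TPM.

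Complex V, ATP synthase, held the most abundant member of all. Atp5b, the catalytic beta subunit of the F1 head, reached 770.3 TPM in animal 1 and 906 TPM in animal 2 and ranked number 16 among nuclear protein-coding genes. Atp5a1, the alpha subunit of the same head, came second in the complex at 359 and 390.4 TPM. Atp5b was therefore above Atp5a1 in both animals, although the proteins stand in equal number in the head. The complex summed to 3170 TPM and 3593 TPM (3382 ± 299, SD, n = 2), of which the 5 F1 genes made up 1539 and 1771 TPM and the stalk and membrane genes 1196 and 1341 TPM. Atp5s, a factor related to ATP synthase and not a structural subunit, stood at 6.65 and 7.45 TPM.

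Only 3 of the 86 members were not detected. Cox8c, a testis isoform, was listed at 0 counts in both animals. Cox7b2, another testis isoform, had 0 counts in animal 1 and 1 count in animal 2. The second Atp5o identifier, a long gene model that spans the neighbouring Donson gene and shares exons with Atp5o, had 4.66 expected counts in animal 1 and 0 in animal 2. With no read seen, the library could still hold a share of 9.42e-06% in animal 1 and 9.11e-06% in animal 2, which equals 3 counts and covers counting error only. The 5 testis germ cell markers were also at 0 in both animals. Both were female, so this outcome was given by the design.

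The muscle and brown fat isoforms of complex IV were present next to the usual ones, and they are where the animals differed most. Cox7a1, the heart and skeletal muscle partner of Cox7a2 that brown fat also uses, stood at 62.7 TPM in animal 1 and 104 TPM in animal 2. It made up 37.1% and 45.3% of the Cox7a2 and Cox7a1 total. Cox8b, the partner of Cox8a in muscle, heart and brown fat, stood at 65.5 and 145 TPM, or 21.1% and 36.6% of the pair. Cox6a2, the striated muscle partner of Cox6a1, stood at 5.65 TPM, from 101 counts, and 27.6 TPM, from 511 counts, or 2.15% and 9.60% of the pair. All 3 were higher in animal 2, while the usual partners differed much less: Cox7a2 at 106 and 125 TPM, Cox8a at 245 and 251 TPM and Cox6a1 at 257 and 260.3 TPM.

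On the log2 scale, Cox6a2 was higher in animal 2 by 2.33 (95% counting interval 2.02 to 2.66), Cox8b by 1.19 (1.04 to 1.34) and Cox7a1 by 0.78 (0.63 to 0.93). The intervals are exact binomial ones and cover counting error only, not the spread between animals. The first 2 were the only members to differ 2-fold at a mean count of 100 or more: 2 of 82 members, where 1.58% of nuclear protein-coding genes were 2-fold higher in animal 2. No member of the 82 was 2-fold higher in animal 1, where 1.75% of nuclear protein-coding genes were.

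Markers of the tissues that use these isoforms differed too, and not all to the same side. All 8 skeletal muscle markers were at least 2-fold higher in animal 2, by a log2 of 1.02 to 2.83, with Acta1, skeletal muscle actin, at 128 and 840 TPM. The 6 heart markers summed to 5.08 and 28.0 TPM, with Nppa at 0 counts in animal 1 and 1 count in animal 2. All 3 heart markers at a mean count of 100, Myh6, Actc1 and Myl3, were at least 2-fold higher in animal 2, by a log2 of 1.96 to 3.52. Whether their RNA came from heart or from skeletal muscle was not tested. The 6 brown fat markers summed to 188 and 234 TPM, and of the 5 at a mean count of 100 only 2 were higher in animal 2. The 6 general fat markers summed to 495 and 583 TPM. Among the brown fat markers, Ucp1, the uncoupling protein of brown fat, was at 131 and 116 TPM, Cidea, a lipid droplet protein, at 34.7 and 45.9 TPM, and Fabp3, a fatty acid binding protein shared with heart and muscle, at 13.6 and 65.5 TPM. The brown fat markers were thus mixed. The 4 general fat markers at a mean count of 100 were all higher in animal 2, with a median log2 ratio of 0.31, while the heart marker Myl7 had 3 counts in each animal. The part of muscle or fat in the isoform levels was not tested.

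**Figure D2:**
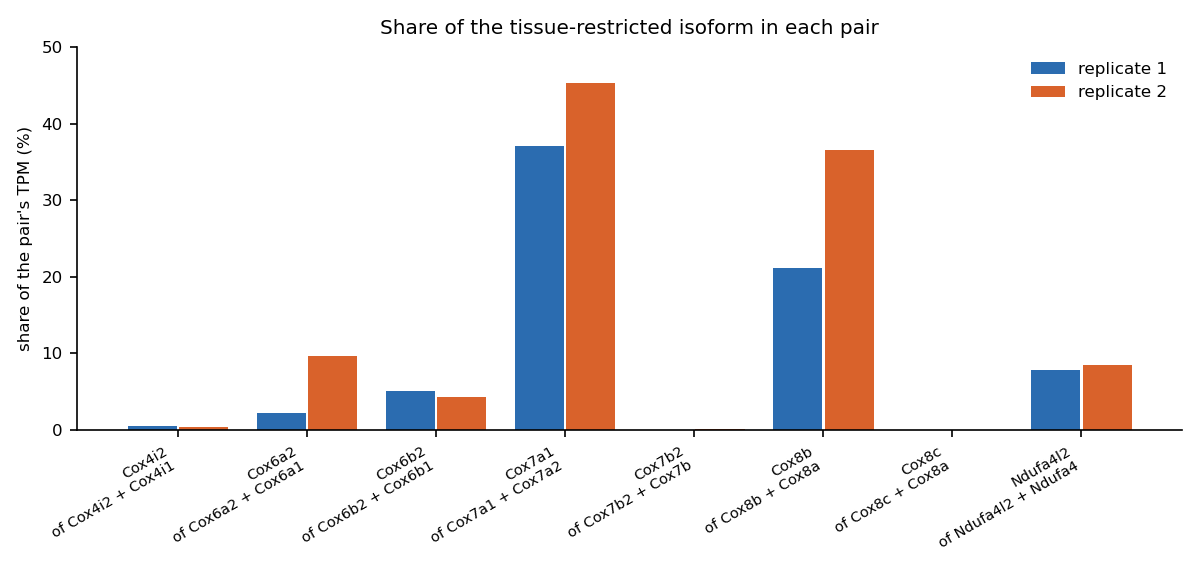
Share of the restricted isoform in the summed TPM of each isoform pair, in percent, with blue bars for animal 1 and orange bars for animal 2. Cox7a1 (37.1% and 45.3%) and Cox8b (21.1% and 36.6%) hold the largest shares, and Cox8b shows the widest gap between the animals.

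Isoforms known from other places were low beside their partners in both animals, with shares that differed by less than 1 percentage point. Ndufa4l2, the hypoxia-linked and pericyte-enriched relative of Ndufa4, stood at 20.4 TPM in animal 1 and 25.4 TPM in animal 2, or 7.85% and 8.49% of its pair. Its partner Ndufa4, a complex IV subunit despite its name, stood at 239 and 274 TPM. The 6 markers of pericytes and smooth muscle summed to 64.4 and 64.7 TPM. Cox6b2, the testis partner of Cox6b1, was present at 14.4 and 14.2 TPM, or 5.11% and 4.35% of its pair, although the testis germ cell markers were at 0. Cox4i2, the lung isoform, stood at 1.76 and 1.85 TPM, from 34 and 37 counts, next to Cox4i1 at 389 and 446 TPM, so its share was 0.45% and 0.413%. Of the 3 lung markers, Sftpc had 3.23 and 3.42 TPM, Sftpb 0 counts in both animals and Scgb1a1 0 and 1 count. As log2 ratios of usual over restricted isoform (TPM + 0.01), Cox4i1 led Cox4i2 by 7.84 ± 0.09, Cox6b1 led Cox6b2 by 4.34 ± 0.17, Ndufa4 led Ndufa4l2 by 3.49 ± 0.09, Cox6a1 led Cox6a2 by 4.37 ± 1.61, Cox8a led Cox8b by 1.35 ± 0.79 and Cox7a2 led Cox7a1 by 0.52 ± 0.34 (SD, n = 2). In the second quantification the Cox7a2 lead was 1.38 ± 0.18, since Cox7a2 was among the members that this table put highest relative to the first.

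The sequences before the start sites of the pairs that differed most are given to show which of the motifs searched they hold. They run from 250 bases before the start to 1 base after the start base, 252 bases in all, on the gene's own strand, from RefSeq on GRCm38.p6. Cox7a2 lies at chr9:79759852-79760103 on the minus strand, Cox7a1 at chr7:30183921-30184172 on the plus strand, Cox8a at chr19:7217615-7217866, Cox8b at chr7:140900445-140900696 and Cox6a1 at chr5:115348957-115349208, the last 3 on the minus strand. Capitals mark an ETS core (CCGGAAG) or an NRF1 core (GCGCATGC), read on either strand.
Cox7a2: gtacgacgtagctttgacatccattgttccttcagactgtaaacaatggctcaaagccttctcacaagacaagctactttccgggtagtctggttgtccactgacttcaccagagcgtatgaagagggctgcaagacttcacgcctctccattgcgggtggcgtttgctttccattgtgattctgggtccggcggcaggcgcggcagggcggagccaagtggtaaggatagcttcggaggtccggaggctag
Cox7a1: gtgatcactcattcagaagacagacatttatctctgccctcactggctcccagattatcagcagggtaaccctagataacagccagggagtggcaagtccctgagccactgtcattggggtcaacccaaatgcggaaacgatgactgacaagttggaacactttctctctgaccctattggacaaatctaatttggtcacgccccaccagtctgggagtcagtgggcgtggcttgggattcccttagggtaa
Cox8a: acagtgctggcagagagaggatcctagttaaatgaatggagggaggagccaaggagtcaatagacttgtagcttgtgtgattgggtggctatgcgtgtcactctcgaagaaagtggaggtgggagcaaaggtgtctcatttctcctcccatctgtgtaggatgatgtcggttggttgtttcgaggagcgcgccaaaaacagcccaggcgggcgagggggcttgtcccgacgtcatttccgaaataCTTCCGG
Cox8b: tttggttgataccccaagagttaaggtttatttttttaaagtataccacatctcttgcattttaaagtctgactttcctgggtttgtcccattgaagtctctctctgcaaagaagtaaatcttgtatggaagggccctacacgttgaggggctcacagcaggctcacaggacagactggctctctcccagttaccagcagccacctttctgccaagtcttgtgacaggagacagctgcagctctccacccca
Cox6a1: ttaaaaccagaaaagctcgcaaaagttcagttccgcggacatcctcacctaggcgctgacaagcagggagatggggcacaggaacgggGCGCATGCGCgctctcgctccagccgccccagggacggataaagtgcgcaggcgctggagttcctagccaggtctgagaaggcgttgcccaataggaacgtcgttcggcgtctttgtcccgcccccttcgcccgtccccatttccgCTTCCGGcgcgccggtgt
Cox6a1 held an ETS core, 16 bases before the start, and an NRF1 core that is read on both strands. Cox8a held an ETS core across the start, and a second one 32 bases after it lies outside the printed stretch. Cox8b and both Cox7a genes held neither core, and the TATA letters of Cox8b, 4 bases after the start, lie outside the printed stretch. Of the 2 pairs with both promoters printed, the Cox8 pair alone has partners that differ in these motifs. Cox6a2 has no entry in the promoter table.

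Over all members, 71 promoters of 66 symbols could be matched, each running from 250 bases before to 50 bases after the start. The ETS core, the letters bound by GABP, was in 16 of the 71 (22.5%), against 8.86% of all 32851 promoters in the table and 16.6% of the promoters of detected protein-coding genes. The NRF1 core was in 10 (14.1%, against 2.71% and 5.03%). The YY1 core (AAGATGGC) was in 9 (12.7%, against 2.75% and 4.21%). At least 1 of the 3 was in 29 promoters (40.8%, against 13.3% and 23.7%), and 6 promoters had more than 1. The TATA box letters (TATAAA) were in 8 (11.3%, against 13.6% and 7.15%). Both strands were searched, and no match overlapped a match of another motif, while the NRF1 letters can be read on both strands of 1 site. GC content is unequal between these sets, with medians of 57.3% in the members, 52.7% in the table and 60.7% in detected genes. A match describes letters and is not a binding site.

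**Figure D3:**
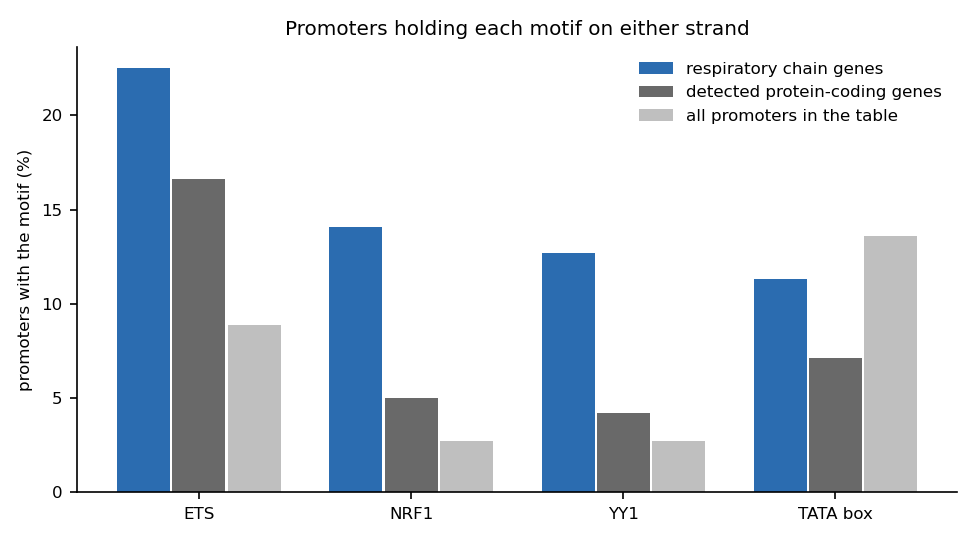
Percent of promoters that hold each motif on either strand, for the members (blue), detected protein-coding genes (dark grey) and all promoters in the table (light grey). The member bars are highest for ETS (22.5%), NRF1 (14.1%) and YY1 (12.7%), and lie between the other bars for the TATA box (11.3%).

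The YY1 letters sat at 1 place. Of the 9 matches, 8 (88.9%) were on the gene's own strand and 22 to 38 bases after the start, where 30.6% of all matches in the table lay on that strand after the start and 43.9% of those in detected genes. Such a match after the start was in 11.3% of member promoters, 0.865% of all promoters in the table and 1.91% of those of detected genes. In all 8, the ATG inside the letters is an annotated start codon of the gene, so the letters cannot be told apart from a start codon context. Of the 8 genes 7 encode complex I subunits, among 33 complex I promoters, and 1 encodes a subunit of ATP synthase. The other match, in Atp5j, was 88 bases before the start. The 8 stretches of 30 bases are given with the YY1 letters in capitals, to show the shared frame, from RefSeq on GRCm38.p6. Ndufa3 lies at chr7:3617384-3617413 and Ndufs7 at chr10:80249462-80249491 on the plus strand. The others are on the minus strand: Ndufc1 at chr3:51408915-51408944, Ndufa9 at chr6:126849097-126849126, Ndufb8 at chr19:44555393-44555422, Ndufs4 at chr13:114388045-114388074, Ndufs6 at chr13:73328433-73328462 and Atp5j2 at chr5:145191500-145191529.
Ndufa3: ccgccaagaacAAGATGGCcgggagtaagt
Ndufc1: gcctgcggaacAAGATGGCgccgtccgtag
Ndufs7: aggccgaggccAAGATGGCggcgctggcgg
Ndufa9: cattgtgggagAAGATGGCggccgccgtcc
Ndufs6: aagggtcaccggcAAGATGGCggcggtgct
Ndufs4: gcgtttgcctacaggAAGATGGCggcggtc
Ndufb8: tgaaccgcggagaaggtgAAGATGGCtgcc
Atp5j2: accaggacttcAAGATGGCgtcactcggtg
Ndufa3 and Ndufc1, the 2 highest complex I genes in the first quantification, were among them, at 192 and 176 TPM in animal 1. Ndufs6, an accessory subunit at 60.1 TPM, was too, so the genes that share this frame spanned much of the range of complex I.

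Apart from the restricted isoforms, the members were slightly higher in animal 2 as a block. Without those isoforms, 76 of 77 members at a mean count of 100 or more were higher, with a median log2 ratio of 0.22. The counts below include them. At a mean count of 100 or more, 80 of 82 members were higher in animal 2, where 56.1% of nuclear protein-coding genes were, and 77 of 82 under scaling to the spike-in totals, where 34.6% were. The median log2 ratio was 0.22 for members and 0.02 for all nuclear protein-coding genes, and under spike-in scaling 0.14 and -0.06. The middle 50% of members lay between 0.18 and 0.26. The 95% counting interval lay above 0 for 76 of the 82, against 23.8% of nuclear protein-coding genes, and below 0 for 0 members. Ratios between 0.1 and 0.4 held 89.0% of members and 25.7% of all nuclear protein-coding genes. The block was thus narrow, and its median lay between those of the adrenal cortex markers (0.14) and the adrenal medulla markers (0.29). Counting error is smaller in genes with more counts, and the members' median level was above that of all nuclear protein-coding genes. Neither the interval comparison nor the band comparison was matched for level.

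**Figure D4:**
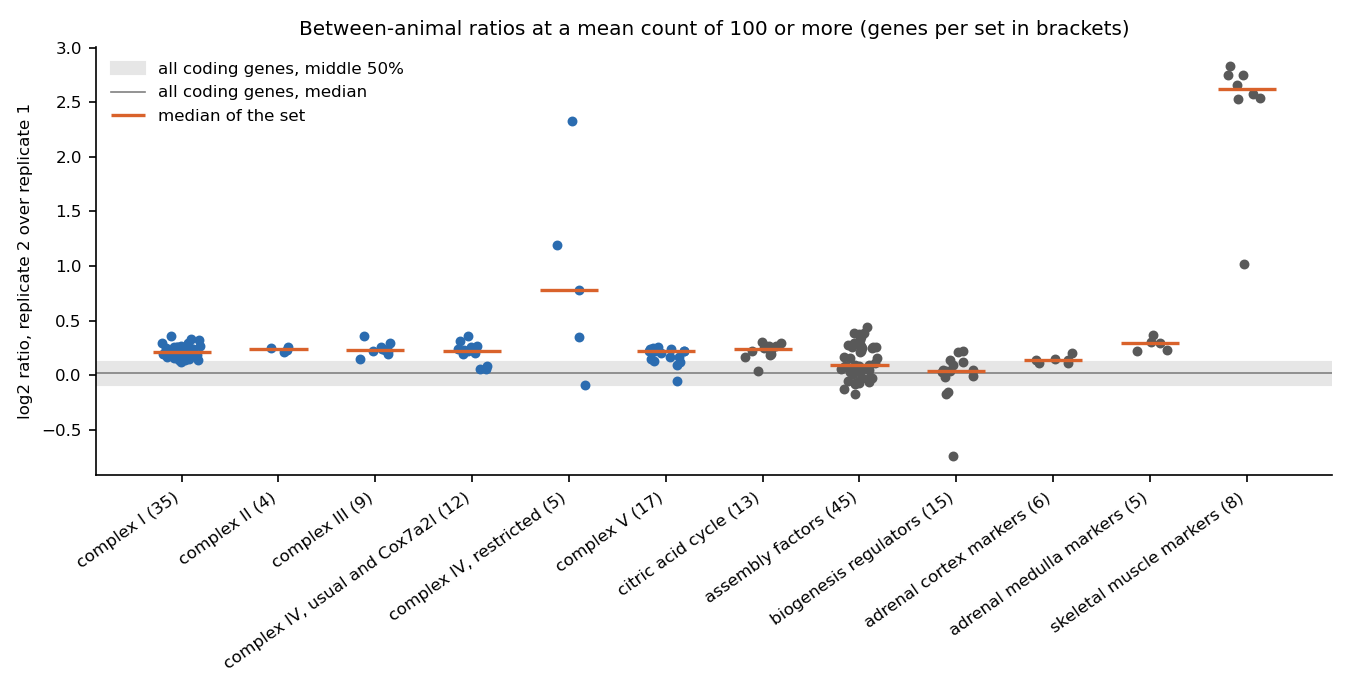
Log2 ratio of animal 2 (replicate 2) over animal 1 (replicate 1) for members by complex (blue) and for other gene lists (grey), each point 1 gene at a mean count of 100 or more, with the set's median as an orange bar; the grey band and line are the middle 50% and the median of all nuclear protein-coding genes. The complexes sit at medians of 0.21 to 0.24, apart from the restricted isoforms of complex IV at 0.78, and skeletal muscle markers sit at 2.62.

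The shift was alike in each complex: the median was 0.21 over the 35 genes of complex I, 0.24 over 4 of complex II, 0.23 over 9 of complex III, 0.23 over the 11 usual genes of complex IV and 0.22 over 17 of complex V. All 35 complex I genes were higher in animal 2, from 0.12 for Ndufb4 to 0.36 for Ndufc1. Uqcrq at 0.36 and Cox5a, a matrix-side subunit of complex IV, at 0.36 were as high. The 2 members that were not higher in animal 2 were Cox6b2, at -0.09 (-0.41 to 0.23), and Atp5g2, at -0.05 (-0.43 to 0.32), both with few counts. Next came Cox7a2l and Cox6a1, at 0.06 each, and Cox8a, at 0.08, and these 3 stood below 0 under spike-in scaling (-0.018, -0.017 and -0.001). Cox6a1 and Cox8a are the partners of Cox6a2 and Cox8b, so in these pairs the usual isoform was at the low end of the members and the restricted one at the high end. Cox7a2, the partner of Cox7a1, was not: at 0.31 it lay above the middle 50% of members.

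Other genes of the pathway, from lists chosen with earlier results of these data known, did not all share the shift. The 13 citric acid cycle genes, which feed the chain, were all higher in animal 2, with a median of 0.24, and 12 of 13 under spike-in scaling, where Suclg2 was not. Mdh2, malate dehydrogenase, stood at 155 and 181 TPM, and Suclg2, a succinyl-CoA ligase subunit, was the lowest at 48.1 and 47.1 TPM. The 46 assembly factors were all detected but had a median of 0.09, with 33 of the 45 at a mean count of 100 higher in animal 2 and 24 under spike-in scaling. Cox14 at 61.2 and 70.6 TPM and Cox17, the copper chaperone of complex IV, at 61.0 and 63.5 TPM were the highest, and Sdhaf3 at 2.12 and 1.75 TPM was the lowest. All assembly factors thus stood below the median member.

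Coenzyme Q carries electrons from complexes I and II to complex III. Of its 13 synthesis genes, 11 were higher in animal 2, with a median of 0.12, and 8 under spike-in scaling. Coq8a, a kinase-like protein of this pathway, was highest at 59.8 and 87.4 TPM, then Coq9 at 45.8 and 53.0 TPM, and Pdss1, which starts the isoprenoid tail, was lowest at 5.92 and 4.67 TPM. Of the 16 regulators of mitochondrial biogenesis 15 were detected, with a median of 0.04 and 10 of 15 higher in animal 2, or 5 of 15 under spike-in scaling. Polg, the mitochondrial DNA polymerase, was highest at 33.5 and 39.5 TPM. Yy1 was second by mean level, at 26.9 and 27.9 TPM, and Esrrb was lowest at 0.36 and 0.28 TPM. Ppargc1a, the coactivator of mitochondrial genes, was lower in animal 2, at 7.78 and 5.50 TPM, or -0.74 on the log2 scale (-0.91 to -0.57). The regulators therefore did not share the members' direction as a group.

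Carriers and partners of the chain were mixed, with 13 of 15 detected and a median of 0.19, and 11 of 14 higher in animal 2, or 8 of 14 under spike-in scaling. Slc25a3, the phosphate carrier, was highest at 308 and 318 TPM. Etfa, of the electron transfer flavoprotein, was second by mean level, at 146 and 164 TPM. Slc25a4, the ADP/ATP carrier of heart and muscle, stood at 102 and 163 TPM (0.71), while Slc25a5, its partner in most tissues, stood at 152 and 143 TPM (-0.04). Ucp3, the uncoupling protein of muscle, stood at 0.96 and 2.56 TPM (1.64), and Cyct, testis cytochrome c, at 0.06 and 0 TPM. The muscle forms of the carrier and of the uncoupling protein were higher in animal 2, as were Cox6a2, Cox8b and Cox7a1. So were all 8 skeletal muscle markers and all 4 liver markers. The part of muscle in these levels was not tested.

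The 13 proteins encoded in mitochondrial DNA summed to 28191 TPM in animal 1 and 29146 TPM in animal 2, with a median of 0.06 (-0.02 under spike-in scaling). The members' sum was 38.8% of this in animal 1 and 43.0% in animal 2. mt-Co1, the catalytic subunit of complex IV, was highest at 6033 and 6879.9 TPM, then mt-Nd1 of complex I at 3679 and 3671 TPM. mt-Co2, the copper-holding subunit of complex IV, was lowest at 71.4 and 27.8 TPM, but the second quantification gave it 724 and 1288 TPM, the opposite order of animals. The tables differ for other mitochondrial genes as well. mt-Co3 had 1276 and 959 TPM in the first and 2597 and 3204 TPM in the second, mt-Atp6 2112 and 2620.4 against 9715 and 10652, mt-Nd4l 2022 and 1959.5 against 48.7 and 42.0, and mt-Atp8 3005 and 2653 against 0 and 0. The levels of these 5 genes are uncertain, and the lowest and second highest gene hold for the first table alone.

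Reads from several members were divided with near-identical copies elsewhere in the genome, and the 2 deposited quantifications divided them differently. Of the members, 23 had another annotated transcript at least 95% identical over at least 150 bases, and for 14 of them the copies held a mean of at least 10 counts. These were 16 copies, 14 of them processed pseudogenes, which are genomic insertions of spliced transcripts, and 8 were listed at 0 in the second quantification in both animals.

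Atp5g2, 1 of the 3 genes for the c subunit whose ring turns in ATP synthase, was the extreme case. The first quantification gave it 123 and 119 counts, or 6.51 and 6.04 TPM. Its pseudogene Gm10175, at chr7:23946646-23947290 (mm10), matches it over 645 bases at 100% identity and took 2885 and 3289 counts, so that the copy held 95.9% and 96.5% of the sum. In the second quantification Atp5g2 had 2757 and 3080.0 counts and Gm10175 had 0. Which of the loci the RNA came from cannot be read from these tables. The make-up of the c ring transcripts turns on it: Atp5g3 held 70.8% and 70.1%, Atp5g1 27.6% and 28.6% and Atp5g2 1.52% and 1.27% of their summed TPM, but 51.9% and 52.3%, 17.7% and 17.6%, and 30.4% and 30.1% in the second quantification.

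Ndufb4, the next lowest gene of complex I in the first quantification, shared its reads with Ndufb4c. This is a processed pseudogene at chr15:73809507-73809896 with 100% identity over 390 bases. Ndufb4 had 573 and 623 counts and Ndufb4c 906 and 1070.3, so the copy held 61.2% and 63.2%, and 0 in the second quantification, where Ndufb4 had 1011 and 1125 counts. Cox7c, a small complex IV subunit, had 2032 and 2345 counts against 1351 and 1575 on its copies Gm12338 and Gm10012, or 39.9% and 40.2%. Because Gm12338 is 192 bases long, its 1062 and 1238 counts came to 371 and 418 TPM, more than the 150.2 and 171 TPM of Cox7c itself. For Ndufs5 the share was 24.6% and 23.6%, for Atp5l 22.8% and 23.9%, for Atp5h 16.0% and 18.1% and for Cox7a2l 16.0% and 15.3%. For the other 7 it ranged from 0.407% to 13.7%. The levels of these genes are uncertain. Apart from the 0 for Ndufb4c, the shares given are those of the first quantification. The second gave the copies more for Ndufb9 (7.67% and 5.47%, against 1.56% and 0.994% in the first). It did so too for Atp5o (6.11% and 5.76%, against 1.86% and 1.89%), and gave the copies less for the others. The ratio of Atp5g2 also depended on the table, at -0.05 in the first and 0.121 in the second quantification, and the sum of gene and copy was 3008 and 3408 counts in the first. Over the other 68 members the median ratio was 0.23, with 67 of 68 higher in animal 2, an alternative chosen after seeing the data.

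**Figure D5:**
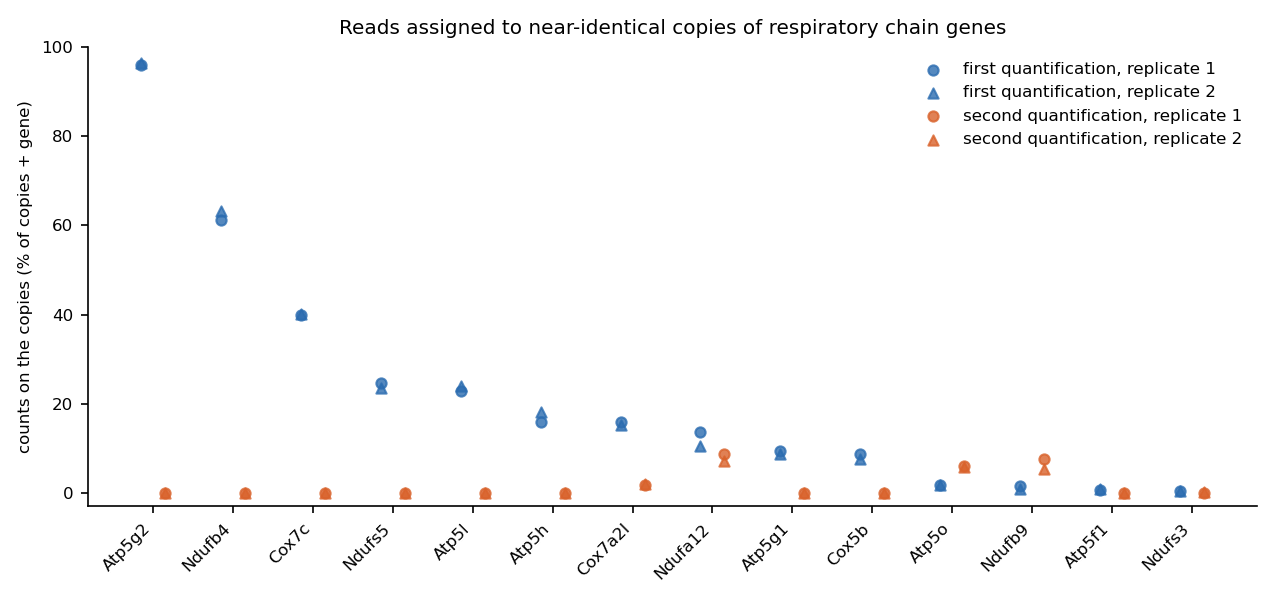
Counts on near-identical copies as a percent of the counts on the copies and the gene together, for the 14 members whose copies held reads; blue is the first quantification, orange the second, circles animal 1 and triangles animal 2. Atp5g2 (95.9%), Ndufb4 (61.2%) and Cox7c (39.9%) stand out in the first quantification and are at 0% in the second.

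The order of the members was steady between animals and less so between quantifications. Across the 86 genes, which are not independent replicates, Spearman's rho of TPM was 0.984 between the animals and 0.863 between the quantifications. The second quantification gave a higher TPM to every detected member, by a median log2 of 1.02, and by 0.86 over detected nuclear protein-coding genes. On long transcripts it took a median of 330 or 331 bases off the length to get the effective length, and the first took 99. The gap on shorter transcripts was not examined. Members that were raised most were Atp5g2 (5.74), Ndufb4 (2.70), Cox7c (2.00), Atp5e, the epsilon subunit of the F1 head, at 1.99 and Cox7a2 (1.78). Least raised were Sdhc (0.07), Ndufa3 (0.17), Cox6a2 (0.41), Ndufa1 (0.41) and Ndufa2 (0.42), the last 2 being small complex I accessory subunits. In TPM, Atp5e stood at 136 and 157 in the first and at 534 and 631 in the second quantification, and Ndufa1 at 76.6 and 88.0 against 94.8 and 124, Ndufa2 at 77.3 and 94.4 against 104 and 127. The first 3 of those raised most are the members with the largest share of reads on copies.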

How the data were processed

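Levels came from the gene tables of the first deposited quantification, which give expected counts and TPM, with mm10 and GENCODE M21 per the authors' notes; the column names are those RSEM writes. A second deposited transcript table gives estimated counts and TPM with the column names kallisto writes, and was summed to genes. The sources used here do not name the aligner or quantifier. Per the labels, libraries were directional, ribosome-depleted, made from 300 ng RNA and spiked with ERCC controls. How reads of a B6/CAST hybrid fare against mm10 was not tested.

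Means and SDs are over 2 animals. Detection means 1 TPM in both. Ranks within a complex are those of the first quantification. Between-animal ratios are log2 of expected counts plus 0.5, scaled by edgeR's TMM (factors 1.02 and 0.985), at a mean count of 100 or more; 2-fold is a rule of size, with no test. Intervals are exact 95% binomial (Clopper-Pearson) on rounded counts, for counting error only. Copies came from BLAST+ 2.17.0 searches of the members' coding transcripts against the M21 transcripts on the sense strand. Promoters are RefSeq's, on GRCm38.p6; the last 20 bases occur in an annotated transcript of the gene for 63 of 71. Software comprised edgeR 4.0.16 and DESeq2 1.42.0 under R 4.3.3, and matplotlib 3.10.9, scipy 1.17.1, pandas 2.3.3 and numpy 2.4.6 under Python 3.11.15; the ratio steps were checked on simulated data. DESeq2 served for size factors alone, on rounded counts.

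The members and lists were chosen with earlier results of these data known. Named genes were the 2 highest and the lowest of each complex, members below 1 TPM, isoform pairs, 2-fold differences, the 3 furthest toward each animal, the 5 most different between quantifications in each direction among detected members, the 3 smallest coding shares, and from each list the 2 highest, the lowest and those below 1 TPM. Others were named after their values were seen. Alternatives were other scalings, thresholds, pseudocounts and the second quantification. Some genes that the rule takes are not reported here; sums, counts and medians include them.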

Additional observations from a re-analysis of the deposited data

How the results depend on the processing

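No paired analysis was possible because the 2 samples form 1 group. With 2 animals and no test, the depth limits only the low isoforms. Detection stayed between 82 and 83 members under thresholds of 0.5 and 5 TPM, the second quantification and either animal alone. The median ratio was 0.23 with DESeq2 size factors, 0.14 with spike-in totals, 0.19 with deposited TPM, 0.20 in the second quantification, and 0.23 without members whose copies held reads. The count higher in animal 2 stayed within 77 to 81 of 82 or 83 under the planned settings, and 2 members differed 2-fold under each scaling, 3 at 1.5-fold. Over either animal alone, sums ranged from 3276 to 3720 TPM (complex I), 476 to 543 (II), 1391 to 1614 (III), 2621 to 3076 (IV) and 3170 to 3593 (V). In the second quantification they were 7079, 796, 3177, 6318 and 7201 TPM, and rescaled to nuclear protein-coding genes 9615, 1400, 4131, 7831 and 9296. From coding transcripts alone they were 2631 (I), 1328 (III) and 2743 (V). Isoform log2 ratios moved beyond 1 SD for Cox4i1 over Cox4i2 (7.22 at a pseudocount of 1, 8.08 in the second quantification), Cox6b1 over Cox6b2 (4.11) and Cox7a2 over Cox7a1 (1.38), the latter 2 in the second quantification. Over either animal alone the 6 ratios were 7.78 to 7.91 (Cox4i), 3.24 to 5.51 (Cox6a), 4.21 to 4.46 (Cox6b), 0.27 to 0.76 (Cox7a), 0.79 to 1.90 (Cox8) and 3.43 to 3.55 (Ndufa4). Atp5g2 was higher in animal 2 in the second quantification (0.121). Why values moved was not tested, apart from rescaling, which divides by a smaller total.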

Other observations

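Of the 12 genes left out for lack of a coding transcript, 2 had levels like members. Ndufb1-ps, annotated as a noncoding RNA, stood at 47.5 TPM in animal 1 and 51.6 TPM in animal 2, with 743 and 854 counts in the second quantification. Ndufb4c, the copy of Ndufb4, stood at 101 and 116 TPM. Cox6c2 stood at 0.94 and 1.35 TPM, and the other 9 had at most 2 counts in either animal. Cycs, somatic cytochrome c, which the rule for members does not take, stood at 14.7 and 16.4 TPM in the first and at 226 and 258 TPM in the second quantification.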
